A study of Mus musculus with 11 samples.

Results

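Gata1, Klf1, Tal1, Gfi1b, Nfe2, Zfpm1, Epor and Tfrc, a group of erythroid transcription factors and receptors, were followed in whole distal tibiae of mice with and without depletion of bone marrow adipocytes (BMAds). They were taken by symbol from a merged table of raw counts. Of the 8 names, 7 have a row among its 22600 genes. Klf1 is outside the merged table used here, so its values come from the counts deposited for each library, an addition made after the files had been seen.

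RNA of 4 Control and 7 BMAd-DTA mice was sequenced, each mouse giving 1 library. The labels give the strain as C57BL6/SJL, the age as 24 weeks and the feeding as ad libitum for all 11 mice, and the genotype of the Control mice as BMAd-WT. According to the methods, every mouse, Control mice included, carried Osterix-FLPo and FAC, an Adipoq-driven Cre that FLPo must first turn into its working orientation. Cre is therefore limited mainly to cells that have used both promoters, which are BMAds for the most part. BMAd-DTA mice also carried ROSA-DTA, in which Cre removes a stop cassette and releases diphtheria toxin A, a toxin that kills the cell making it. The study notes that some BMAds remain in the distal tibiae of these mice.

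Red blood cells arise in bone marrow from progenitors shared with megakaryocytes. Gata1 and Tal1 encode DNA-binding proteins that sit together on the enhancers of erythroid genes, and Zfpm1 encodes FOG1, the zinc finger partner that Gata1 needs in both lineages. Klf1 switches on adult globin and red cell membrane genes, Gfi1b is a repressor that recruits histone demethylases, and Nfe2 binds with small Maf proteins at globin and platelet genes. The receptor encoded by Epor passes the survival signal of erythropoietin to the progenitors, and the transferrin receptor encoded by Tfrc brings in the iron that hemoglobin needs. Gata1, Tal1, Zfpm1, Gfi1b and Nfe2 also act in megakaryocytes, Gata1 also in mast cells and eosinophils, and Tfrc in nearly every dividing cell.

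Short sequences are shown for the binding motifs of these factors in the members' own promoters, because erythroid factors are known to act on each other's genes. RefSeq promoter windows of GRCm38.p6, from 250 bases before to 50 bases after a start site, were present for 7 of the 8 genes in 9 windows, and not for Nfe2. The GATA word was searched on both strands as GATA with A or T before it and A or G after it. It was found in 4 of the 9 windows, from 4 genes, against 29.8% of all 32851 windows. In the lines below each gene is written 5′ to 3′ on its own strand, capitals mark the word, and a word that reads TATC lies on the other strand.
Gfi1b, minus strand, chr2:28622085-28622114, word 120 bases before the start: tctgtgaagtttTGATAAgcaaatgtggct
Tal1, plus strand, chr4:115056209-115056238, word 205 bases before the start: ctatagagtcttTTATCTttgagcaattcc
Klf1, plus strand, chr8:84901890-84901919, word 80 bases before the start: tttgcctgggtcTTATCAgggaagacagcc
Epor, minus strand, chr9:21963613-21963642, word 54 bases before the start: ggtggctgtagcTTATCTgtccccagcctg

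The CACCC element bound by Klf1 and related factors was searched as CCNCACCC on both strands. It was present in 16.6% of all windows and in 4 of the 9 windows here, which belong to 3 of the 7 genes. The windows of Tfrc overlap, so its last element below also lies 40 bases after the first start. The windows with an element are therefore not all separate cases. No letters of it overlap the GATA words above.
Gata1, minus strand, chrX:7967947-7967976, element 55 bases before the start: cccctgcactgCCCCACCCactggggcacc
Epor, minus strand, chr9:21963682-21963711, element 124 bases before the start: tctgctgtctgCCCCACCCcctacactggt
Tfrc, plus strand, chr16:32608734-32608763, element on the other strand 151 bases before the start: cggcgggggagGGGTGCGGtggagaaagcg
Tfrc, plus strand, chr16:32608925-32608954, element on the other strand 186 bases before a second start: ggccggccgggGGGTGGGGccgagctataa
Epor was the single gene with both motifs in its window. A match says that the letters are there, and binding was not measured in these bones.

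Tfrc messenger RNA is also controlled after transcription, through hairpins in its 3′ UTR called iron-responsive elements, which iron regulatory proteins bind when iron is scarce and which then keep the transcript from decay. Such an element has an unpaired C, a stem arm of 5 bases, a loop that starts with CAGTG, and a second arm that pairs with the first. A search of the 2458 bases of the Tfrc-201 3′ UTR (GENCODE M21, GRCm38, plus strand) found 4, with the loop in capitals.
Element 1, chr16:32631219-32631248: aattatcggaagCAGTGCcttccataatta
Element 2, chr16:32631598-32631627: cattatcgggagCAGTGTcttccataatgc
Element 3, chr16:32631663-32631692: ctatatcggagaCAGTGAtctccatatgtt
Element 4, chr16:32631710-32631739: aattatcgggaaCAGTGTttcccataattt
Of the 5646 coding transcripts with a 3′ UTR at least as long, 0.903% held such an element in a window of this length, and Tfrc was the 1 gene with as many as 4. The counts below measure the amount of Tfrc RNA and do not tell its synthesis from its decay.

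Total counts per library were between 16969529 and 18637663, with medians of 17701061 in Control and 17612195 in BMAd-DTA mice. The values are given as CPM, the pairs of a gene per 1000000 pairs of its library after TMM scaling, and members had between 925 and 10040 counts in a library, so counting error was small beside the spread between mice. Erythroid markers were present in every library, with Slc4a1, the anion exchanger of the red cell membrane, at a mean of 2539 CPM. Control replicate 1 stood apart in osteoblast and osteocyte markers, whose levels sum to 2963 CPM there and to 11321 to 12982 CPM in the other Control mice. Skeletal muscle markers differed 81.4-fold between the lowest and the highest library, with summed levels of 16.3 to 1325 CPM in Control and 17.6 to 1052 CPM in BMAd-DTA mice, and Mb and Myh1 were each at 0 in 1 library. Xist had 13810 to 20260 counts in every library and 4 genes of the Y chromosome had at most 1 count together. This is the pattern of female mice, while the legends of the figures with these RNA data describe male mice. The labels name no sex, no batch, and no replicate number, so mice are numbered here in sample order within each group.

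Every one of the 8 genes had a lower mean in BMAd-DTA mice, and none reached an adjusted p under 0.05 in the quasi-likelihood test of edgeR. The test covered 16496 genes of the merged table and, for Klf1, 16668 genes of the per-library counts. The fitted levels were 14.7% (Nfe2) to 30.9% (Klf1) lower, and the median log2 fold change was -0.47 for the 8 genes and -0.46 for the 7 of the merged table. The median of all genes tested was 0.0018, and 49.6% of them had a negative log2 fold change. In the same test 13 genes of all passed (0.0788%), 12 of them higher in BMAd-DTA mice. Before adjustment, 7 of the 8 members had a p under 0.05 and were lower. Within the merged table these were 6 of the 7 members, against 8.53% of all genes. DESeq2, the tool used in the study, called 6 of the 8 with an adjusted p under 0.05 and left out Gfi1b and Nfe2. Within the merged table it called 5 of the 7 members, against 2.64% of all genes called lower. In no member was every BMAd-DTA mouse below every Control mouse, which held for 1.04% of all genes. In whole bone, fewer erythroid cells and less RNA per cell cannot be told apart.

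**Figure D1:**
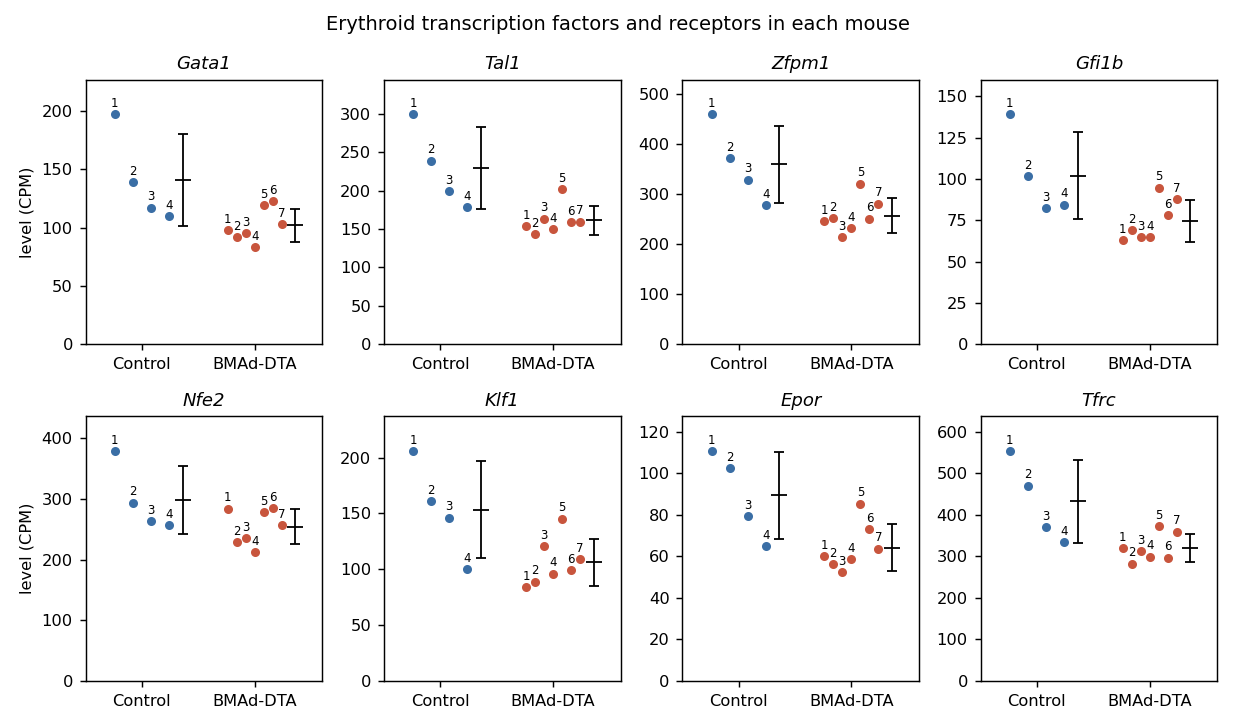
Level of each gene in CPM (vertical axis from 0) in the 4 Control (blue) and 7 BMAd-DTA (red) mice, with points numbered by replicate and black bars for the mean ± SD. Control replicate 1 is the highest point in all 8 panels, and BMAd-DTA replicate 5 lies within the Control range in each.

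Gata1 (ENSMUSG00000031162.14, chromosome X, 7959260 to 7978071 of GRCm38, minus strand), the master regulator of the erythroid program, was at 197, 139, 117 and 109.6 CPM in Control replicates 1 to 4, the order used for each gene that follows. In the BMAd-DTA mice it ran from 83.6 CPM, through a median of 98.2 CPM, to 123 CPM. Of the 7 BMAd-DTA mice, 5 were below the lowest Control mouse and the other two lay among Control replicates 2 to 4. The means were 102 ± 14.4 CPM (SD, n = 7) and 141 ± 39.7 CPM in Control mice (SD, n = 4), which gave a log2 fold change of -0.46 (standard error, SE, 0.15, 95% interval -0.79 to -0.14) and an adjusted p of 0.144 (edgeR quasi-likelihood test, Benjamini-Hochberg).

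Tal1 (ENSMUSG00000028717.12, chromosome 4, 115056426 to 115071755, plus strand), which binds DNA as a dimer with E proteins, was at 299.7, 239, 199 and 179 CPM in the Control mice. Its levels in the BMAd-DTA mice began at 144 CPM, had a median of 159 CPM, and ended at 202 CPM. Here 6 of the 7 BMAd-DTA mice lay below all Control mice, more than for any other member, and replicate 5 was the exception. The log2 fold change was -0.50 (SE 0.13, 95% interval -0.78 to -0.23), and its adjusted p, 0.0860 by edgeR and 0.00752 by DESeq2, was the lowest of the 8 genes by both tools.

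Zfpm1 (ENSMUSG00000049577.15, chromosome 8, 122282141 to 122337251, plus strand) was at 459, 372, 328 and 278 CPM in the Control mice. The BMAd-DTA mice spanned 213 to 321 CPM with a median of 251 CPM, and replicates 5 and 7 overlapped the Control range. The log2 fold change of this Gata1 cofactor was -0.49 (SE 0.13), and its adjusted p was 0.0985 in edgeR and 0.0124 in DESeq2. Zfpm1 is the only member that overlaps another annotated gene, Gm20388 on the same strand, whose reads cannot all be told from its own.

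Gfi1b (ENSMUSG00000026815.14, chromosome 2, 28609450 to 28621982, minus strand), the repressor of the group, was at 139, 102, 82.2 and 84.5 CPM in the Control mice and between 63.2 and 94.8 CPM in the BMAd-DTA mice, with a median of 69.1 CPM. Control replicates 3 and 4 were closer to the BMAd-DTA mice than to Control replicate 1. Its log2 fold change of -0.45 (SE 0.15) did not pass in edgeR (adjusted p = 0.158) or in DESeq2 (adjusted p = 0.0605).

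Nfe2 (ENSMUSG00000058794.12, chromosome 15, 103248212 to 103258403, minus strand) had the smallest difference. The Control mice were at 379, 294, 263 and 257 CPM, and the BMAd-DTA mice ran from 213 CPM, through a median of 257 CPM, to 285 CPM. Of the 7 BMAd-DTA mice, 4 were below every Control mouse and 3 lay above Control replicate 3. The log2 fold change was -0.23 (SE 0.11), the 95% interval from -0.48 to 0.017 included 0, and the adjusted p was 0.336 in edgeR and 0.287 in DESeq2.

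Klf1 (ENSMUSG00000054191.9 in the per-library counts, chromosome 8, 84901928 to 84905291, plus strand) was fitted among the 16668 genes of those counts. It was at 206, 161, 146 and 100.5 CPM in the Control mice, and in the BMAd-DTA mice the lowest, median and highest levels were 83.8, 99.3 and 145 CPM. Control replicate 4 lay inside the range of the BMAd-DTA mice, and 4 of these were below it. The log2 fold change, -0.53, was the most negative of the group, with the widest SE (0.18), an adjusted p of 0.153 in edgeR and of 0.0439 in DESeq2.

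The receptors differed by much the same amount as the factors. Epor (ENSMUSG00000006235.6, chromosome 9, 21958897 to 21963506, minus strand) was at 111, 103, 79.3 and 64.9 CPM in the Control mice, against a low of 52.5 CPM, a median of 59.9 CPM and a high of 85.4 CPM in the BMAd-DTA mice. Replicates 5 and 6 were the BMAd-DTA mice above the lowest Control mouse. The log2 fold change was -0.48 (SE 0.15, adjusted p = 0.144 in edgeR, 0.0439 in DESeq2).

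Tfrc (ENSMUSG00000022797.16, chromosome 16, 32608920 to 32632794, plus strand), the transcript with the iron-responsive elements printed above, was at 553, 470.1, 371 and 334 CPM in the Control mice. Levels in the BMAd-DTA mice were 282 CPM at the lowest, 313 CPM at the median and 372 CPM at the highest, and 5 of the 7 mice were below all Control mice. Its log2 fold change was -0.43 (SE 0.12, adjusted p = 0.115 in edgeR, 0.0253 in DESeq2).

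**Figure D2:**
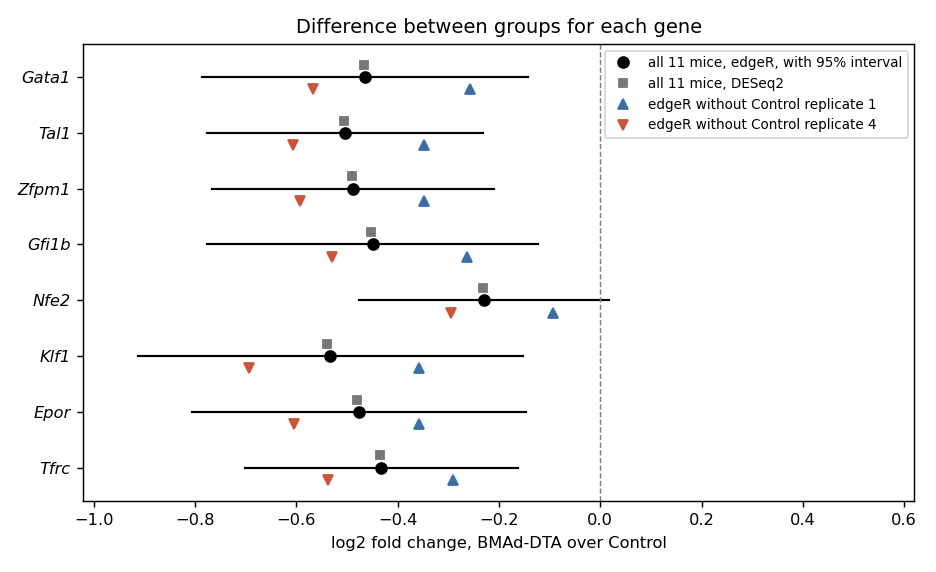
Log2 fold change of each gene, BMAd-DTA over Control (horizontal axis), with the 95% interval of edgeR as a line, and with DESeq2 and the fits without Control replicate 1 or 4 as further symbols. All symbols lie below 0, those without Control replicate 1 lie closest to it (-0.36 to -0.094), and the interval of Nfe2 alone includes 0.

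The members shared the order of the mice in part. Control replicate 1 had the highest level of all 11 mice in each of the 8 genes and Control replicate 2 the second highest, while Control replicate 4 was the lowest Control mouse in 7 of them. Among the BMAd-DTA mice, replicate 5 overlapped the Control range in all 8 genes, and replicates 2 and 4 in none. Other BMAd-DTA mice changed rank from gene to gene. Among the 11 mice, replicate 1 ranked from 4 to 11, replicate 3 from 5 to 11 and replicate 6 from 3 to 10. Without Control replicate 1, the log2 fold changes of the members ran from -0.36 to -0.094, with adjusted p values of 0.296 to 0.788 in edgeR, and the median over the 7 genes of the merged table was -0.29. Gata1 (-0.26), Gfi1b (-0.26) and Nfe2 (-0.094) moved by more than 1.5 times in that fit. Without Control replicate 4 the members ran from -0.69 to -0.29, and with the skeletal muscle markers as a covariate from -0.52 to -0.19.

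With group means removed, Pearson's r between 2 members over the 11 mice was between 0.54 (Nfe2 with Klf1) and 0.93 (Nfe2 with Gata1), with a median of 0.84 over 28 pairs. These values share libraries and scaling, and are given as a description. How far they rest on Control replicate 1, the highest mouse in every member, was not tested. The ratio of each other member to Gata1 within a mouse, examined after the levels were known, shows whether the group moved in proportion. For Tal1, Zfpm1, Gfi1b, Klf1, Epor and Tfrc the mean log2 ratio differed between the groups by -0.07 to 0.03, with p values of 0.606 to 0.973 (exact permutation test, two-sided). The Nfe2 to Gata1 log2 ratio was 1.32 ± 0.11 (SD, n = 7) in BMAd-DTA and 1.11 ± 0.13 (SD, n = 4) in Control mice, a difference of 0.22 (exact permutation test over 330 arrangements, two-sided, p = 0.00909, adjusted p = 0.0636 over 7 ratios). The ranges met, with 0.94 to 1.23 in Control and 1.22 to 1.53 in BMAd-DTA mice, and the difference did not pass after adjustment.

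Levels of different genes were compared per kilobase of merged exon. Zfpm1 (103 ± 21.9), Klf1 (100.4 ± 28.5) and Nfe2 (99.9 ± 18.8 CPM per kilobase; SD, n = 4) were highest in Control mice and did not differ from one another beyond their spread. Tfrc followed at 69.9 CPM per kilobase, between 54.0 and 89.5 in the 4 mice. Gata1 (57.7), Gfi1b (55.7), Tal1 (52.4) and Epor (44.9 CPM per kilobase) were lowest, and each lay within 1 SD of its neighbour in that order. In BMAd-DTA mice Nfe2 came first at 85.2 ± 9.87 CPM per kilobase (SD, n = 7), ahead of Zfpm1 at 73.1 ± 9.99 and Klf1 at 69.4 ± 13.9, and the ranges of these genes overlapped.

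**Figure D3:**
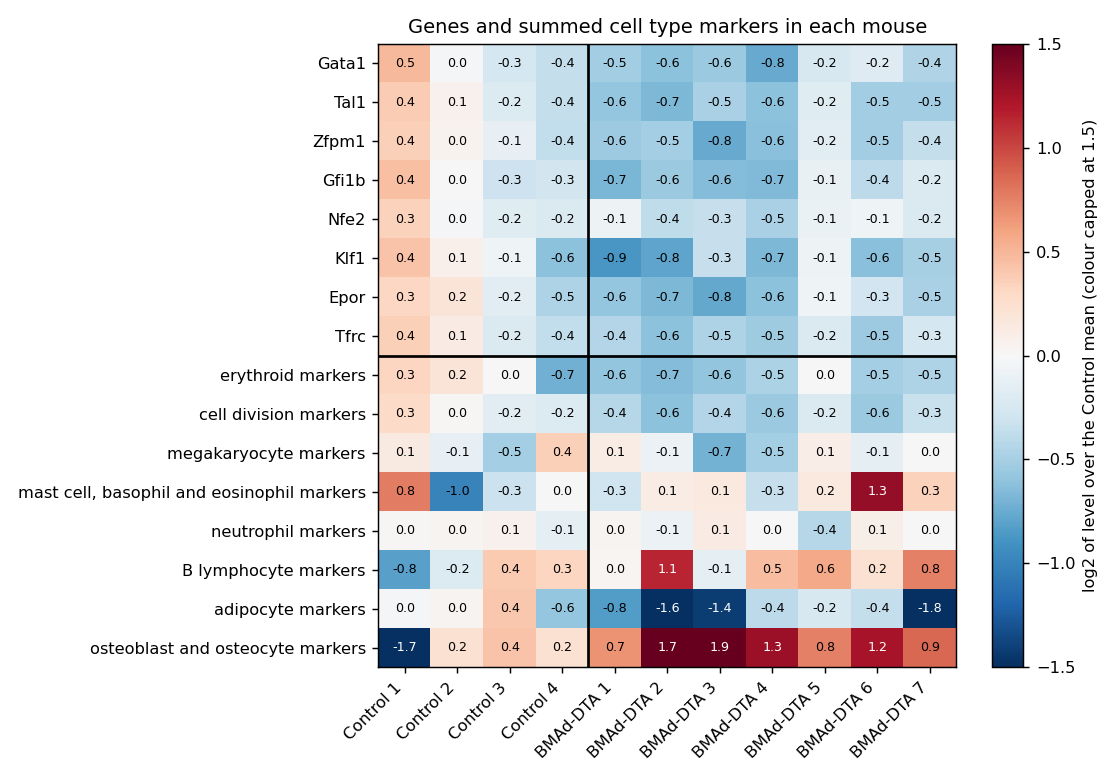
Each cell is the log2 of a mouse's level over the Control mean, for the 8 genes (above the black line) and for the summed levels of 8 lists of cell type markers (below it), with Control mice left of the vertical line. The rows of the 8 genes resemble those of erythroid and cell division markers, while neutrophil markers lie between -0.4 and 0.1.

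Markers of red cells and of dividing cells were lower along with the members. The summed erythroid markers, of which Slc4a1 was the most abundant, were at 7189.7, 6601, 5726 and 3499 CPM in the Control mice and between 3664 and 5797 CPM in the BMAd-DTA mice. The highest BMAd-DTA value was again that of replicate 5. The sum in Control replicate 4 lay below that of every BMAd-DTA mouse. All 7 tested markers had negative log2 fold changes (median -0.56). None passed in edgeR, and 4 were called lower by DESeq2. The 12 cell division markers, of which Mki67 was the most abundant, summed to 3881 to 5425 CPM in Control and 2902 to 3829.8 CPM in BMAd-DTA mice. These sums missed overlapping by a narrow margin. In no single marker was every BMAd-DTA mouse below every Control mouse. Mki67 itself was at 1742 to 2648 CPM in Control and 1173 to 1749 CPM in BMAd-DTA mice. All 12 markers were lower with an unadjusted p under 0.05 (median log2 fold change -0.33). None of the 12 passed in edgeR, and DESeq2 called 8 lower. Of all genes tested, 8.53% were lower with an unadjusted p under 0.05, and DESeq2 called 2.64% lower. Their part in the members' difference was not tested.

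Other blood lineages were measured in the same way. The 11 tested megakaryocyte markers, of which the platelet chemokine Ppbp was the most abundant, all had negative log2 fold changes with a median of -0.16, none had an unadjusted p under 0.05, and their sums overlapped widely (1749 to 3205 CPM in Control, 1528 to 2703 CPM in BMAd-DTA mice). Gp1bb, the untested one of the 12, was at 0 in 1 library. Mast cell, basophil and eosinophil markers, led by Prg2, had a median of -0.0051 with 5 of 10 lower, and neutrophil markers, led by Ngp, one of -0.018 with 5 of 10 lower. Markers of B lymphocytes, led by Cd79a, had positive values in all 10 cases (median 0.44), but none passed in edgeR or DESeq2 and their sums overlapped (443 to 1023 CPM in Control, 704 to 1725 CPM in BMAd-DTA mice). Those of osteoblasts and osteocytes, led by Col1a1, were higher in all 10 (median 1.06, summed levels of 2963 to 12982 CPM in Control and 15370.1 to 36139 CPM in BMAd-DTA mice). All 10 had an unadjusted p under 0.05, 1 passed in edgeR and 8 passed in DESeq2. Of 16496 genes tested, 2708 had such a p in either direction, and edgeR called 12 higher. DESeq2 called 433 of 15583 genes higher. Skeletal muscle markers, led by Atp2a1, had a median of -0.84 with 12 of 12 negative, but none had an unadjusted p under 0.05. Adipocyte markers, led by Fabp4, had a median of -1.10 with 8 of 8 negative. None of them passed in edgeR and 2 did in DESeq2, which called 2.64% of all genes lower. The adipocyte sums overlapped (826 to 1635 CPM in Control, 367 to 1048 CPM in BMAd-DTA mice). CPM is a share of each library, so a rise in one set of transcripts lowers the rest, and the part of this in the members' values was not tested.

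The genes that act with the members were listed in 4 groups, and in none did any gene reach an adjusted p under 0.05 by edgeR. Beside the counts that follow, 49.6% of all genes tested were lower in BMAd-DTA mice. The share lower with an unadjusted p under 0.05 was 8.53%, and DESeq2 called 2.64% lower. Of 24 partners of the erythroid factors, 23 were lower (median log2 fold change -0.11), 10 of them with an unadjusted p under 0.05. Sox6, which silences embryonic globin genes, had the most negative value at -0.63 (SE 0.18, adjusted p = 0.113 in edgeR, 0.0175 in DESeq2). It was at 76.7 ± 15.9 CPM (SD, n = 7) in BMAd-DTA and 119 ± 36.1 CPM in Control mice (SD, n = 4). Lmo2, the bridging protein of the complex of Gata1 and Tal1, had a log2 fold change of -0.34 (SE 0.098, adjusted p = 0.117 in edgeR, 0.0344 in DESeq2). Mafk, a small Maf partner of Nfe2, was at -0.28 (SE 0.085, adjusted p = 0.131 in edgeR). Fli1, which promotes the megakaryocyte fate, was the 1 gene with a positive value (0.014, SE 0.099).

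The list for erythropoietin receptor signalling also held another receptor and its ligand, which are not below that receptor. In this list 10 of 17 genes were lower, against 49.6% of all genes, with a median of -0.075. Of the 10, 4 had an unadjusted p under 0.05, and DESeq2 called none of the 17. Without Control replicate 4 that median was -0.025. Jak2, the kinase bound to the receptor, had a log2 fold change of -0.22 (SE 0.072, adjusted p = 0.148). Stat5a, the transcription factor that Jak2 activates, was at -0.32 (SE 0.11, adjusted p = 0.175), and the Stat5 target Pim1 at -0.29 (SE 0.098, adjusted p = 0.154, all from edgeR). Cish, another Stat5 target and an inhibitor of the receptor, was at 0.25 (SE 0.19, adjusted p = 0.559), with levels of 7.94 to 19.3 CPM in BMAd-DTA and 12.4 to 14.7 CPM in Control mice.

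Of 24 genes of iron uptake, iron handling and heme synthesis, 20 were lower, with a median of -0.24, 12 with an unadjusted p under 0.05 and 4 called by DESeq2. Cpox, an enzyme of heme synthesis, was at 149 ± 22.3 CPM (SD, n = 7) in BMAd-DTA and 242 ± 78.4 CPM in Control mice (SD, n = 4), a log2 fold change of -0.70 (SE 0.17, adjusted p = 0.0774 in edgeR, 0.00301 in DESeq2). Slc11a2, which moves the iron delivered through Tfrc out of the endosome, had -0.33 (SE 0.10, adjusted p = 0.135 in edgeR). Ftl1, the light chain of the iron store ferritin, had the opposite sign, with a log2 fold change of 0.98 (SE 0.37, unadjusted p = 0.0200, adjusted p = 0.204 in edgeR). Its levels were 211 to 1115 CPM in Control and 734 to 1401 CPM in BMAd-DTA mice.

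Genes of red cell structure and the globins were listed last. Of the 28 tested, 27 were lower, with a median of -0.48, 19 with an unadjusted p under 0.05 and 9 called by DESeq2. Rhag, of the Rh complex, had -0.66 (SE 0.19, adjusted p = 0.117 in edgeR). Ank1, the ankyrin that ties the membrane to its skeleton, had -0.62 (SE 0.16, adjusted p = 0.0955 in edgeR, 0.00738 in DESeq2). Ermap was at -0.63 (SE 0.17, adjusted p = 0.106 in edgeR) and the water channel Aqp1 at -0.41 (SE 0.12, adjusted p = 0.117 in edgeR). Hba-a2, an alpha globin gene with a near-identical copy that makes its count uncertain, was the 1 gene with a positive value (0.039, SE 0.24), at 3419 ± 892 CPM in BMAd-DTA and 3328 ± 1148 CPM in Control mice. The other globin genes of the list, named after their values were seen, were also near 0, with log2 fold changes of -0.075 for Hba-a1 (SE 0.24), -0.029 for Hbb-bs (SE 0.22) and -0.070 for Hbb-bt (SE 0.18). The adjusted p of the 4 globin genes was between 0.892 (Hbb-bt) and 0.969 (Hbb-bs) in edgeR. Pairs that map to more than 1 place were left out, so copies alike in sequence make all 4 globin counts uncertain.

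**Figure D4:**
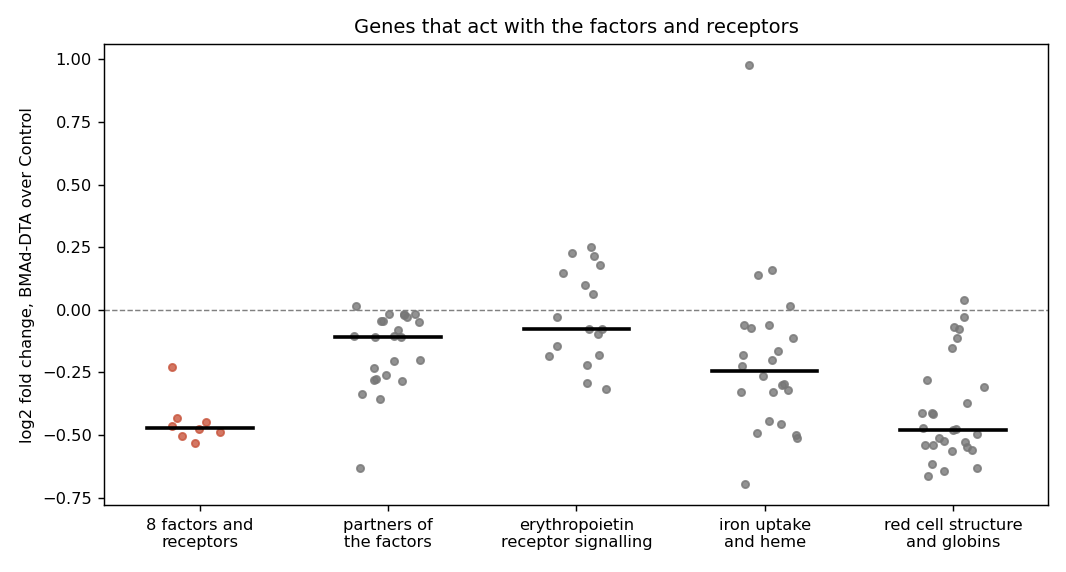
Log2 fold change, BMAd-DTA over Control, of each tested gene (points) in the group of 8 factors and receptors and in the 4 lists of genes that act with them, with black bars at the medians. The medians of the 8 genes (-0.47) and of red cell structure and globins (-0.48) are the lowest, and Ftl1 is the highest point at 0.98.

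The genes whose levels followed a member most closely over the 11 mice, with group means removed and among 14891 genes, are named here, 3 for each member. For Gata1 they were Fam104a (r = 0.95), Kifc5b and Ccnd3, the cyclin that sets the number of divisions of erythroid precursors. For Gfi1b they were Kif22 (r = 0.98), a kinesin of the mitotic spindle, and Tk1 and Dck, which make nucleotides for DNA. Tfrc was followed by Pkn2 (r = 0.97), Gid8 and the spindle gene Dlgap5, and Tal1 by Cul4a (r = 0.97), Metap2 and the tubulin gene Tubb4b. Klf1 was nearest to Prdx2 (r = 0.97), an antioxidant enzyme abundant in red cells, then to Slc6a20a and F930017D23Rik. Epor was nearest to Pigq (r = 0.97), Rfx2 and Slc43a1, Zfpm1 to Rfx2 (r = 0.95), the adducin gene Add1 and Shc4, and Nfe2 to Gata1 itself (r = 0.93), Nipa1 and Gmnn, the inhibitor of replication licensing. The values describe these 11 libraries, which share scaling and tissue composition.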

How the data were processed

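The authors checked reads with FastQC (0.11.9) and ran STAR with its defaults against mm10. They deposited raw counts of read pairs per gene, for each library (55401 genes) and as a merged table (22600 genes). The gene annotation release is not given in the sources used here. All 22600 merged rows equal the read-strand column of the library files, and 1.46% of those counts lie outside the merged table. Lines of unmapped (9.10% to 15.1%) and multimapping (6.68% to 9.07%) pairs, and the other lines that name no gene, were left out. Of the members' stranded pairs, at least 99.2% were on the read strand.

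The main test was edgeR 4.0.16 in R 4.3.3, with filterByExpr, TMM factors, genotype as the only term, glmQLFit and a two-sided glmQLFTest. Adjusted p values are Benjamini-Hochberg over 16496 genes, or 16668 for Klf1, with a threshold of 0.05. Standard errors were the log2 fold change over the root of F, and intervals are approximate. The common biological coefficient of variation was 0.202. DESeq2 1.42.0 and limma 3.58.1 (voom), 3 scalings, 2 filters, both-strand counts, a fit without globin and mitochondrial genes, a muscle covariate and each mouse left out in turn were alternatives. The steps were tested on simulated data. No 2 libraries of a group agreed within sampling noise (smallest chi-square per gene 16.7). Labels do not say whether mice were littermates. The edgeR p-values set the group difference against a spread between these mice that is estimated partly from all genes.

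Positions came from GENCODE M21 and identifiers were joined without their version. The members and lists were chosen with earlier results of these data known. The genes named are the members, in each pathway list the tested genes with the smallest and the largest log2 fold change and the 3 with the smallest p, in each marker list the gene with the highest mean, and for each member the 3 genes with the largest r (mean CPM of at least 1, prior count 2). One gene that this rule names is not reported here. The fit of Klf1, the ratios to Gata1, and the motif and element searches were added after the files had been seen.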

Additional observations from a re-analysis of the deposited data

Results flagged for a closer look

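Tal1 in BMAd-DTA replicate 5, at 202 CPM, stood apart from the other BMAd-DTA mice, whose levels ran from 144 to 164 CPM. The gap to the nearest mouse was 0.66 of the range of the group. Of 16 combinations of gene and group examined in this way this was the 1 that stood out, and chance alone would mark about 1 in 20. The same mouse had the highest level of the BMAd-DTA mice in 6 of the 8 genes.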

How the results depend on the processing

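The log2 fold changes of the members were negative in all 175 combinations of member and alternative, and 6 of these, all from DESeq2, had an adjusted p under 0.05. Among the 7 members of the merged table DESeq2 called 5, where edgeR's quasi-likelihood test called 0 with 6 at an unadjusted p under 0.05 and limma-voom called 0. Over all genes, edgeR called 13, DESeq2 845, limma-voom 20, edgeR with RLE scaling 20 and with a skeletal muscle covariate 3. The split of 12 higher to 1 lower in edgeR was 433 to 412 in DESeq2, 14 to 6 in limma-voom, 15 to 5 with RLE scaling, 176 to 116 without Control replicate 3 and, with more genes lower than higher, 30 to 59 without Control replicate 4. With each mouse left out in turn the count ran from 0 to 292, largest without Control replicate 3, and no member was called. The number of members in which every BMAd-DTA mouse lay below every Control mouse ran from 0 to 1, with 1 without Control replicate 4 or without BMAd-DTA replicate 5. The median of the members ran from -0.57 (without Control replicate 4) to -0.29 (without Control replicate 1). The cause of these differences was not tested. The separation of the groups was not counted with DESeq2, limma-voom or the muscle covariate. All 88 medians of the pathway lists kept their sign. No paired analysis was possible because the labels do not pair any Control mouse with a BMAd-DTA mouse.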
